A study of Mus musculus with 27 samples.

Results

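The 5709 regions described here are stretches of the mouse genome, away from gene ends, that carried a peak of H3K4me1 in every H3K4me1 library of a B-cell lymphoma model. Autosomal H3K4me1 peaks of 4 libraries were merged into 53808 regions where they overlapped or touched. Of these, 24466 held a peak of all 4 libraries. An overlap with a peak of H3K4me3 in any of 5 libraries removed 18191 of them, and a distance under 2 kb to the nearest protein-coding gene end removed 566 more. The members were therefore 10.6% of all merged regions. They were chosen by the H3K4me1 and H3K4me3 peaks themselves, so their number, width, peak enrichment, distance to genes and lack of H3K4me3 are given as descriptions, without a test. Close to the 2 kb limit were members by Gpr55 and Eef1g, at 2023 and 2025 bp. Just outside it lay regions by Chka, Tnfrsf14 and Slc41a3, at 1996, 1993 and 1989 bp.

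All animals of origin carried the VavP-Bcl2 transgene, which drives the survival gene Bcl2 in blood cells, so no group lacks it. Haematopoietic stem cells of E13.5 fetal liver received either an empty vector or MSCV-SHMT2, a retrovirus encoding the mitochondrial serine hydroxymethyltransferase SHMT2, and were then engrafted into irradiated wild-type mice, and B220+ spleen cells were collected. H3K4me1 was profiled in 2 vector and 2 SHMT2 libraries, H3K4me3 in 2 and 3, RNA in 3 and 3, and DNA methylation, by enhanced reduced representation bisulfite sequencing (ERRBS), in 3 and 3; for ERRBS the labels give the B220+ cells, the model and the vector but neither the graft nor the spleen. ChIP libraries carry replicate numbers 4 to 6 and the RNA and ERRBS libraries 1 to 3, and nothing states that replicates are separate animals, so a p-value here reflects spread among samples that may be technical in origin.

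H3K4me1 is a histone mark placed by the MLL3 and MLL4 methyltransferases over enhancers, the distant sequences through which transcription factors raise the activity of a gene. H3K4me3 marks the starts of active genes, so H3K4me1 without H3K4me3 is the usual outline of an enhancer. Enhancers bound by transcription factors tend to lose DNA methylation at their core, and genes that define a cell type are often surrounded by many or very broad enhancers. In B cells PAX5, EBF1, PU.1, RUNX and E2A proteins act at such sites.

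No genome sequence of the build was used, so the letters shown are those of annotated start sites and miRNAs that lie inside members. RefSeq (GRCm38.p6) gave 168 start windows of 250 bases just upstream of a transcript start that lay within 144 of the members. Most, 129, belonged to lncRNAs, and 39 to internal or alternative starts of protein-coding genes. The windows below were chosen after their values had been seen: Pik3cd as an internal start of a B-cell signalling gene, Acot7 because its expression is described below, Gm38456 beside Lpp and Gm34322 beside Tle3 because these genes had many members, and Slc25a25, Zmynd8 and Gm30908 because ERRBS read at least 3 cytosines in them. Each runs 5′ to 3′ on the strand of its transcript, and capitals mark CpG dinucleotides, the bases whose methylation ERRBS reads.
Pik3cd: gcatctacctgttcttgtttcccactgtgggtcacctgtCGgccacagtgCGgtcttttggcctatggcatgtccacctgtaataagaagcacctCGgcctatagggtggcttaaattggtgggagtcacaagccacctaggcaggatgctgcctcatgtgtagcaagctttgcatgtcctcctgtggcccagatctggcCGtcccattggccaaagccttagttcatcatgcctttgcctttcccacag
Acot7: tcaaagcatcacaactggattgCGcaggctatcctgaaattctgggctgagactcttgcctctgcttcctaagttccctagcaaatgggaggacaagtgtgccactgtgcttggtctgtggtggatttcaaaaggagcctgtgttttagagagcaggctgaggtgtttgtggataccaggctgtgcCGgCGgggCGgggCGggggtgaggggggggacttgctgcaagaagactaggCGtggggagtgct
Gm38456: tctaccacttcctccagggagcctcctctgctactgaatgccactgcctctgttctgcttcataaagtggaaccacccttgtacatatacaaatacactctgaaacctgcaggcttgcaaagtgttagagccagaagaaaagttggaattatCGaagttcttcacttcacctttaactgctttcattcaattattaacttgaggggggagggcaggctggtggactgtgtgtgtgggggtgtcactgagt
Gm34322: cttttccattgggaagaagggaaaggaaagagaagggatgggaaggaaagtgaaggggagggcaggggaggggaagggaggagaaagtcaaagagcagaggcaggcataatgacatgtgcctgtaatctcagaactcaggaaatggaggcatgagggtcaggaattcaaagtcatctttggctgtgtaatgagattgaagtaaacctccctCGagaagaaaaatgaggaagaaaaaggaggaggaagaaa
Slc25a25: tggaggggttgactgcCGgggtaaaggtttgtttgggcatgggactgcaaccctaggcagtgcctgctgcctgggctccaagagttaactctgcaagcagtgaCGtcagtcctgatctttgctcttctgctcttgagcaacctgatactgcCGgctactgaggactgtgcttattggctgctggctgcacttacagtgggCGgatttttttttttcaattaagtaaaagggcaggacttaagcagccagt
Zmynd8: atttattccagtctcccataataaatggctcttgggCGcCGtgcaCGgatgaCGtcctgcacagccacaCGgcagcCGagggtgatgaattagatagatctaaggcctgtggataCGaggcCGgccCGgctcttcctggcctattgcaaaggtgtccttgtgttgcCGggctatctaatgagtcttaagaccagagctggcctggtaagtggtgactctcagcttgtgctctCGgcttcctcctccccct
Gm30908: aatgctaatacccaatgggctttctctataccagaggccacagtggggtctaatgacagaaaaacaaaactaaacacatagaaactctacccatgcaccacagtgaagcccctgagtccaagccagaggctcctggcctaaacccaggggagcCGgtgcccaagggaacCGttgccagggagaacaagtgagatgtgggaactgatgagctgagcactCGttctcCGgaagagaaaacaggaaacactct

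The Pik3cd window, at chr4:149663317-149663566 on the minus strand, lay in a 7717-bp member and held 4 CpG, none of them covered. Pik3cd encodes the p110δ catalytic subunit of PI3-kinase, which carries signals of the B cell receptor. The Acot7 window (chr4:152185358-152185607, plus) lay in a member of 2128 bp, the Gm34322 window (chr9:61442441-61442690, plus) in one of 10807 bp and the Gm38456 window (chr16:24296234-24296483, minus) in one of 6097 bp. The Gm34322 and Gm38456 windows held 1 CpG each, and ERRBS read no cytosine in these 3.

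Methylation inside the covered windows ranged widely. In the Slc25a25 window (chr2:32424067-32424316, minus), an alternative start of a mitochondrial carrier gene, 5 cytosines read 66.2, 53.6 and 53.0% in the vector libraries and 74.4, 76.5 and 65.5% in the SHMT2 libraries. The groups overlapped there. The Zmynd8 window (chr2:165858174-165858423, minus) had 11 CpG, of which 3 cytosines were read at 77.3, 70.0 and 83.2% with vector and 85.9, 85.9 and 83.9% with SHMT2. The Gm30908 window (chr2:166471213-166471462, plus), in a member assigned to Prex1, was low in all 6 libraries, at 15.3, 17.2, 14.9, 20.3, 20.5 and 12.2% in the same order. These values were picked from 7 windows with any covered cytosine, and no test was made of them.

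Across the 168 windows the median was 3 CpG, against 6 over 31365 windows of the same length at all autosomal starts, and the median GC content was 49.0% against 52.4%. On either strand, TGTGGT, the core of the RUNX motif, occurred in 25% of member windows and 14.0% of all windows. GAGGAAGT, a PU.1 motif, occurred in 5.36% and 2.48%, the E-box CAGCTG in 17.3% and 13%, and the octamer ATGCAAAT in 2.38% and 1.62%. None of these motifs contains another, some windows overlap each other, and the 2 sets differ in base composition, so the shares are descriptions of letters only.

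RefSeq also placed 7 miRNA genes inside members. Mir28a lay in the widest of the members assigned to Lpp, its host gene, a region of 8341 bp at chr16:24823034-24831374. Its mature forms are shown with the seed, bases 2 to 8, in capitals, and the seeds of the arms differ.
mmu-miR-28a-5p: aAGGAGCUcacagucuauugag
mmu-miR-28a-3p: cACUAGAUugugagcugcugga

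**Figure D1:**
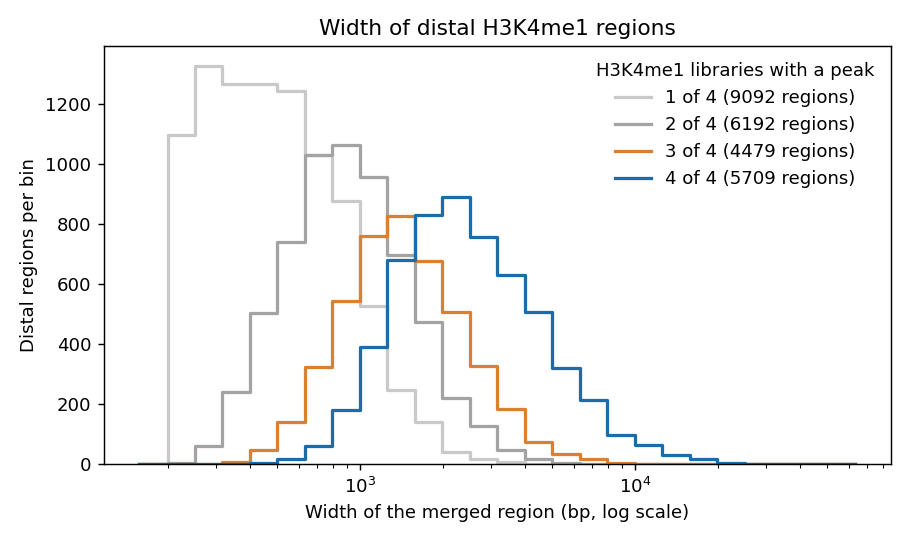
Number of distal H3K4me1 regions (y axis) by width in bp on a log scale (x axis), with 1 line for regions with a peak in 1, 2, 3 or 4 of the 4 H3K4me1 libraries. The median width moves from 461 bp for 1 library to 2375 bp for 4.

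Members were wide. Their median width was 2375 bp, with quartiles of 1624 and 3748 bp and a range of 384 to 43312 bp, and together they spanned 17.6 Mb. The 19763 distal regions with a peak in only 1 to 3 libraries, called partly shared below, had a median of 764 bp. A width of 10 kb or more was reached by 120 members (2.10%) and by 2 partly shared regions. Width is tied to the rule, and the plot of widths shows the median growing with each added library, through 886 and 1403 bp for 2 and 3 libraries.

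The H3K4me1 lists differed in size, with 36622 and 32742 autosomal peaks for vector replicates 4 and 5 and 47948 and 50959 for SHMT2 replicates 4 and 5. Peaks covered a median of 1322 and 1058 bp of each member in the vector libraries and 1965 and 2055 bp in the SHMT2 libraries. Both SHMT2 libraries covered more bases than both vector libraries in 4165 members (73.0%), beside 73.4% of all regions found in 4 libraries, and fewer in 40 members (0.70%) beside 0.699%. The members' shares were thus near those of all regions, and the size of the lists and the group cannot be told apart. The authors' median fold enrichment of peaks in members was 3.65 and 3.24 with vector and 4.06 and 3.72 with SHMT2. Over all autosomal peaks of each list it was 3.73 and 3.38 with vector and 3.78 and 3.41 with SHMT2. Peaks in members were thus below their list's median with vector and above it with SHMT2. These peaks chose the members, so the values are descriptions and a change was not tested. Without vector replicate 5, which had the shortest list, 9266 regions met the rule.

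The widest member, 43312 bp at chr7:101146738-101190049, lay nearest to Fchsd2, which encodes an endocytic adaptor. It was covered over 26365 and 18297 bp by the vector lists and 39045 and 41258 bp by the SHMT2 lists. Next were members by Dyrk1a, a protein kinase (36665 bp), by Ankrd44 (32452 bp) and by Ikzf3, which encodes the lymphoid transcription factor Aiolos (25587 bp, chr11:98512834-98538420). The other 6 of the 10 widest were 18871 to 20605 bp wide and lay by Rab10, Chsy1, Susd6, Pip4k2a, Taf4 and B4galt5. All of the 10 nearest genes were expressed in all 6 RNA libraries, Rab10 for example at 56.9, 60.2 and 61.0 TPM, a transcript abundance scaled to the same sum in each library, with vector and 60.3, 64.4 and 65.2 TPM with SHMT2. Where ERRBS could read these wide members, methylation was mostly high: 92.9 to 96.8% by Fchsd2, 91.0 to 95.3% by Dyrk1a, 88.2 to 98.0% by Pip4k2a and 73.9 to 84.4% by Chsy1, each from 4 to 6 cytosines.

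The median distance of a member to the nearest protein-coding gene end was 22.8 kb (quartiles 9.78 and 54.0 kb), and 23.0 kb for partly shared regions. Within gene spans lay 3539 members (62.0%), and 227 were more than 200 kb from any gene end. Counting members as a cluster where gaps were at most 15 kb, 844 clusters of 2 or more held 1992 members (34.9%). The cluster with most members, 7 over 84.1 kb, lay in Setbp1. Clusters of 6 lay by Ppp3ca, a calcineurin subunit (63.4 kb), by Cux1 (53.9 kb), by Tmem163 (52.4 kb) and by Tmem68 (41.1 kb), and one of 5 lay by Msi2 (75.7 kb).

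Assigning each member to the gene with the nearest end, Lpp had most, 19 members of 75.6 kb in all between chr16:24261870 and 25053907. Lpp encodes a focal adhesion protein and lies next to Bcl6, the master repressor of the germinal centre, which had 2 members of its own. Btg1, an antiproliferative gene often mutated in B-cell lymphoma, Foxp1, a transcription factor of early B cells, and Myc, the growth-promoting oncogene, had 15 each. Those of Btg1 lay on both sides of the gene, between chr10:96336375 and 96707357, 14 of those of Foxp1 lay within its 597-kb span, and those of Myc reached up to chr15:62825402, all on 1 side of the gene. Cux1, Rpia and Trib2 followed with 13 each, Tle3 with 12 and Lclat1 and Rybp with 11. The members assigned to Rpia began at chr6:69226558, inside the immunoglobulin kappa locus, whose segments are not counted as protein-coding genes.

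The kappa locus held 20 members, the immunoglobulin heavy-chain locus 5 and the lambda locus 5. The T cell receptor loci held 1 each, for the alpha and delta chains together and for the beta chain. Per 100 kb this was 0.593 in the kappa, 0.169 in the heavy-chain and 1.25 in the lambda locus, against 0.050 and 0.115 in the T cell receptor loci. Each T cell receptor value rests on 1 member. No density over all autosomes was set beside these values, so they do not show that any locus is rich in members.

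**Figure D2:**
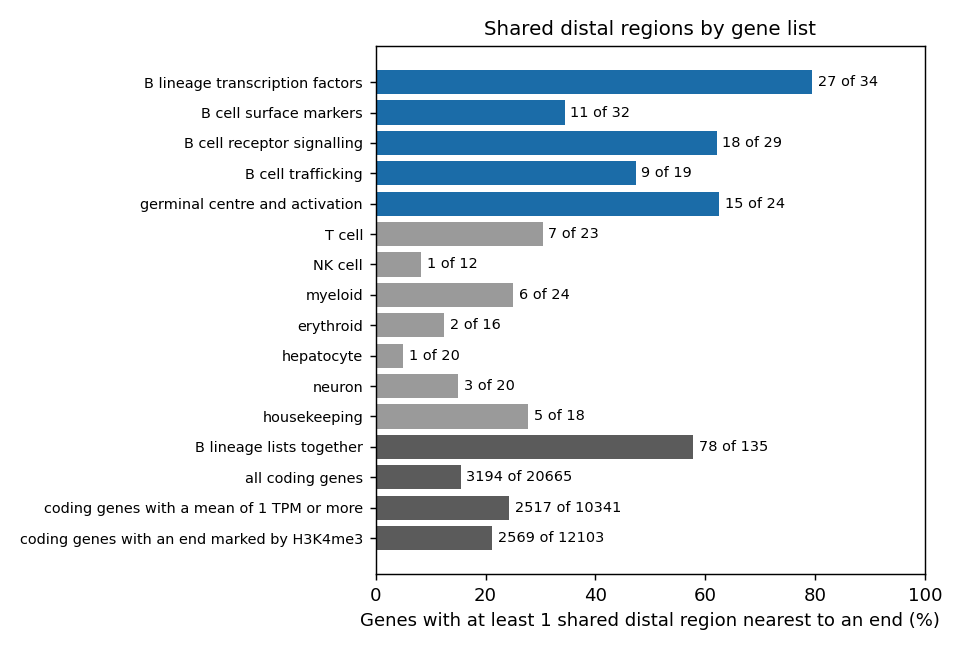
Percent of the genes of each list that have at least 1 shared distal region nearest to one of their ends (x axis), with the counts beside the bars. B lineage lists are blue, lists of other cell types light grey and combined sets dark grey; transcription factors of the B lineage have the longest bar at 79.4%.

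Of 135 B lineage genes in 5 lists, 78 (57.8%, 95% Wilson interval 49.3 to 65.8, counting error only) had at least 1 member. The same share was 15.5% over all 20665 protein-coding genes and 24.3% over those averaging 1 TPM or more. As the bars by gene list show, it was highest for transcription factors (27 of 34) and lower for activation and germinal centre genes (15 of 24), B cell receptor signalling (18 of 29) and trafficking (9 of 19). Surface markers had the lowest share of the B lineage lists, 11 of 32, although their median expression was the highest of them at 289.9 TPM. Among lists of other cells, 7 of 23 T cell genes had a member, 6 of 24 myeloid, 2 of 16 erythroid, 1 of 12 NK cell, 3 of 20 neuronal and 1 of 20 hepatocyte genes, and 5 of 18 housekeeping genes did. By members within 100 kb of the span, 29 of 135 B lineage genes had none, beside 4448 of 10341 averaging 1 TPM or more. None was found for 6 of 23 T cell, 7 of 18 housekeeping and 14 of 24 myeloid genes. The same held for 10 of 16 erythroid, 8 of 12 NK cell, 14 of 20 neuronal and 17 of 20 hepatocyte genes. By this count B lineage genes differed less from T cell and housekeeping genes, so the gap depended on how members were assigned. Lists differ in gene length and expression, whose part in these shares was not tested.

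After Btg1, Foxp1 and Myc, B lineage genes with many members included Bach2, a repressor that keeps B cells from becoming plasma cells, and Cxcr4, the receptor that guides B cells to CXCL12, with 10 each. Ebf1, which commits cells to the B lineage, Fyn, a Src-family kinase, and Zeb2, a zinc-finger repressor, had 9 each, Runx1 had 8, and Bank1 and Itpr1, which act downstream of the B cell receptor, had 6 each. Cxcr4, a gene of only 4.10 kb, had 9 members within 100 kb, or 4.41 per 100 kb, and its widest assigned member was 14094 bp. The count within 100 kb was 16 for Foxp1, 11 for Bach2, 10 for Fyn, 9 for Itpr1 and 7 for Runx1. It was only 6 for Ebf1, 5 each for Btg1 and Zeb2, 3 for Bank1 and 2 for Myc. Members assigned by the nearest end can thus lie far from the gene, for Zeb2 up to 1428216 bp. Pax5, the identity factor of B cells, had 3 members assigned, of which the widest was 12583 bp. No member was assigned to 57 of the 135 genes, among them Akt1, Arhgef1, Basp1, Blnk, Ccl22, Ccr6 and Cd180. Cd79a, Cd79b, Ms4a1 and Cd22 had none either, while H3K4me1 of all 4 libraries covered 64.6 to 87.4% of their short spans. Basp1 was at 885.5 to 3380 TPM with no member and 10 partly shared regions, so high expression without a member occurred.

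ERRBS, which had no part in the choice of members, could be read in a minority of them. At cytosines covered by at least 10 calls in all 6 libraries, 585 members (10.2%) had 3 or more, with a median of 5 cytosines and 275 calls per library. These members were wider (median 3104 bp) than the others (2330 bp). Their mean level was 58.7, 59.2 and 58.3% in vector replicates 1 to 3 and 61.7, 58.5 and 59.6% in SHMT2 replicates 1 to 3. The groups overlapped, with SHMT2 1.22 percentage points above vector (58.7 ± 0.42 against 59.9 ± 1.60, SD, n = 3 each; two-sided exact permutation p = 0.3, smallest possible 0.1). This difference was 2.16 points with regions weighted by their calls and 3.24 points over the 63 members with 10 or more cytosines (exact permutation p = 0.1 in both), and 0.36 without SHMT2 replicate 1. Single members were spread over the whole scale: 89 were under 20%, 281 between 20 and 80%, and 215 over 80%.

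The lowest of the members with 10 or more covered cytosines lay by Gng7, a G-protein subunit gene, at 0.13 to 1.81% in the 6 libraries, then by Plekha6 (4.29 to 14.7%), Runx3, a lymphocyte transcription factor (5.58 to 16.4%), Sox1 (5.91 to 14.7%) and Aen (6.93 to 16.2%). The highest lay by Slc23a2 (94.2 to 97.5%), Cpsf6 (93.5 to 96.4%), Ist1 (92.1 to 95.9%), Sema4d, a semaphorin of lymphocytes (92.4 to 94.7%), and Nlrx1 (82.5 to 96.2%). Low members occurred by genes listed near 0, such as Sox1, a neural transcription factor at 0 to 0.025 TPM, and by expressed ones, such as Aen at 21.9 to 28.0 TPM.

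Of 257 members by B lineage genes, 35 had 3 or more covered cytosines. Their mean level was 54.8, 55.5 and 53.9% with vector and 58.4, 57.0 and 56.2% with SHMT2, beside 58.9, 59.4 and 58.6% and 61.9, 58.6 and 59.9% for all other members. The lowest was by Nfatc2, a calcium-dependent activator of lymphocytes, at 4.66 to 10.4%, and one by Irf8, which shapes germinal centre B cells, was at 3.49 to 13.7%. The 14094-bp member by Cxcr4 was at 12.6 to 29.5%. Neighbouring members of 1 gene differed: of 5 by Myc, one was at 19.9 to 34.4% and the other four at 69.6 to 97.1%. The 12583-bp member by Pax5 ranged from 27.6 to 60.5%, with both extremes in replicates numbered 2.

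**Figure D3:**
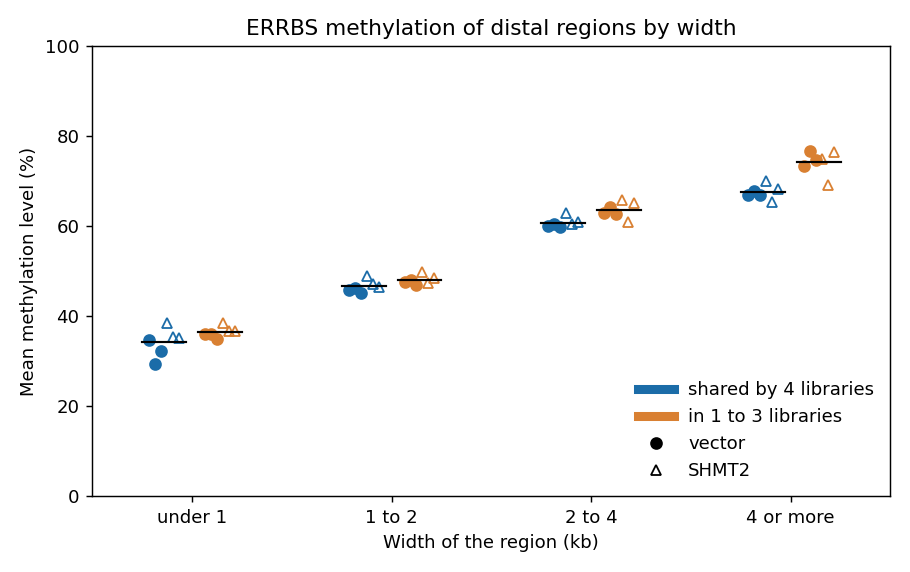
Mean methylation level in percent (y axis) of shared and partly shared distal regions in 4 classes of width in kb (x axis). Each point is 1 ERRBS library (filled circles vector, open triangles SHMT2) and black lines are the means of 6; levels go up with width, and shared regions sit slightly under partly shared ones in each class.

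Members were more methylated than partly shared regions as a whole, but not within classes of similar width. The mean over 979 partly shared regions was 45.1% against 59.3% for members, a difference of 14.3 ± 0.27 points (SD over 6 libraries), positive in 6 of 6 libraries (two-sided exact sign-flip permutation over libraries, p = 0.03125, the smallest that 6 libraries allow). All libraries read the same regions, so sign flips measure agreement among libraries and leave out the spread among regions, whose quartiles were 34.4 and 87.6% in members. The difference was 7.06 points where the peaks of each list had to cover 50% of a region, 26.9 points with regions weighted by their calls and 35.0 points over regions with 10 or more cytosines. Within widths under 1 kb, 1 to 2, 2 to 4 and at least 4 kb, the library means of members minus those of partly shared regions averaged -2.31, -1.44, -2.93 and -6.68 points, gaps that are small beside the spread among regions and are given as values. The first of these classes held 10 members and the last 16 partly shared regions, and the split was made after seeing the data. In members the level went from 34.2% under 1 kb through 46.6 and 60.7% to 67.5% at 4 kb or more, as the plot by width shows.

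Members were less methylated than distal sequence without either mark. Over 50538 tiles of 1 kb outside all H3K4me1 and H3K4me3 peaks, the mean was 80.8, 81.0 and 78.8% in the vector libraries and 79.6, 75.1 and 81.4% in the SHMT2 libraries. The difference was -20.1 points on average (SD 2.31), with members lower in 6 of 6 libraries (exact sign-flip permutation p = 0.03125). It ranged from -16.6 points in SHMT2 replicate 2 to -22.1 points in vector replicate 1. It was -7.91 points with regions weighted by their calls and -13.2 points over regions with 10 or more cytosines.

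**Figure D4:**
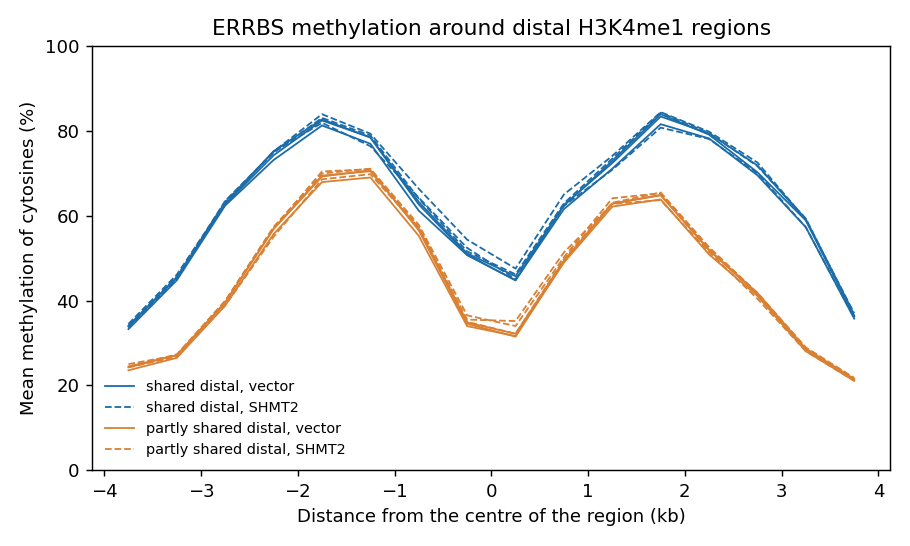
Mean methylation of covered cytosines in percent (y axis) in 0.5-kb bins by distance from the region centre in kb (x axis), 1 line per ERRBS library (solid vector, dashed SHMT2). Shared regions dip to 45.7% just after the centre between shoulders of 82.5 and 83.0%.

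Methylation was lower around the centres of members than 1.5 to 2 kb from them, over bins that run past the edges of narrow members. These bins pooled the covered cytosines around all members, including members with too few covered cytosines for a level of their own. Cytosines within 0.5 kb on either side of the centre averaged 51.8 and 45.7%, those 1.5 to 2 kb away 82.5 and 83.0%, as the profile around centres shows. Partly shared regions dipped to 35.0 and 32.8% between shoulders of up to 70.3%. Farther out, beyond 3.5 kb, levels were 33.9 and 36.3% around members; these bins may reach other regions and gene starts, whose part was not tested. Counted from the nearest edge and inside members only, the level was 60.7% within 0.5 kb, 52.0% at 0.5 to 1 kb, 63.0% at 1 to 2 kb and 67.8% at 2 kb or more. These bins drew on 448, 369, 267 and 130 members, the last on wide ones only. Inner and outer bases of the same members were not compared. The dip around centres was seen in each of the 6 libraries, at 44.8, 45.7 and 44.8% with vector and 47.5, 45.0 and 46.2% with SHMT2 in the bin just after the centre.

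No single member passed the test between SHMT2 and vector. In the quasi-binomial model over 13917 H3K4me1 regions, 0 of 585 members had an adjusted p under 0.05 with a difference of 10 points, beside 0% of all regions. At an unadjusted p under 0.05 there were 19 members (3.25%) beside 3.95% of all regions. This count rested on single libraries: it was 73 (12.5%, beside 10.1% of all regions) without SHMT2 replicate 3, and 11 or 12 without vector replicate 2 or 3 or SHMT2 replicate 1 or 2. SHMT2 libraries were all above vector libraries in 43 members (7.35%, beside 5.05% of all regions) and all below in 11 (1.88%, beside 3.92%). The 13917 regions are an unlike background, as 9115 were found in 4 libraries but were not distal. Those averaged 16.1% methylation with a median of 18 cytosines, against 59.3% and 5 in members. Of the 6 libraries SHMT2 replicate 2 was the odd one: 28 members were at least 10 points higher and 49 at least 10 points lower in it than in any other, against at most 12 and 8 for the other libraries.

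The members with the smallest p among those without overlap are given as values, as their adjusted p was 0.884 in each case; without SHMT2 replicate 3 it was 0.195 to 0.689. By Rasgrp2, an activator of RAP1 in blood cells, 16 cytosines read 59.1, 59.2 and 63.4% with vector and 73.2, 73.0 and 70.4% with SHMT2. By Cbfa2t3, a corepressor of blood stem cells, the values were 8.66, 13.7 and 16.6% against 40.8, 38.9 and 21.7%. By Sema4b they were 51.9, 40.6 and 47.9% against 66.8, 74.4 and 59.2%. In all of these the SHMT2 libraries were higher, as they were by Ccdc162 (a difference of 12.2 points) and Tex101 (6.90 points). In the opposite direction, a member by Mbp read 48.6, 54.9 and 58.8% with vector and 25.5, 42.1 and 47.6% with SHMT2. Differences of -14.4 points by Opa1, -13.9 by E130309D02Rik, -5.75 by Ube2h and -5.56 by Slc6a6 completed the 5 lower ones, from 3 to 8 cytosines each.

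**Figure D5:**
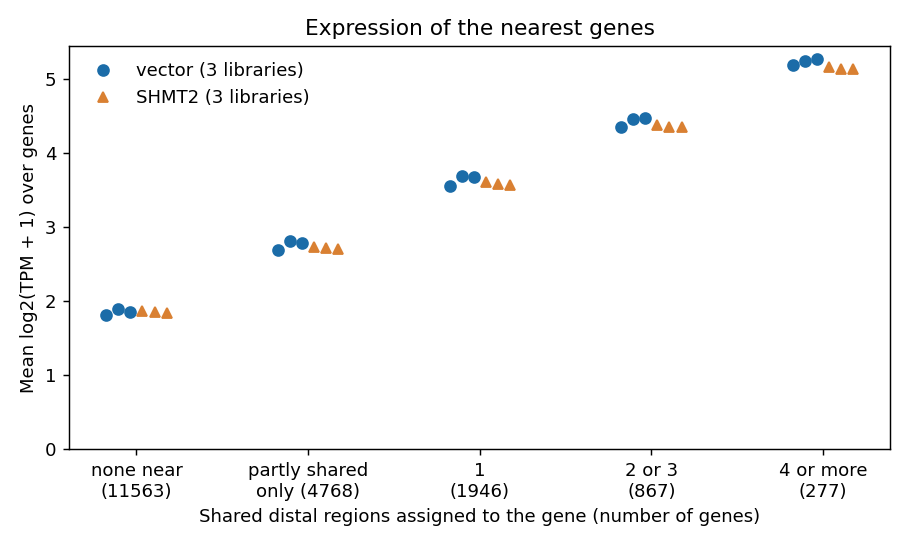
Mean log2(TPM + 1) over genes (y axis) by the number of shared distal regions assigned to the gene (x axis, with the number of genes). Each point is 1 RNA library, circles vector and triangles SHMT2; all 6 libraries are higher in each class to the right.

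Genes nearest to members were more highly expressed than genes nearest to partly shared regions alone. Over 3090 such genes the mean log2(TPM + 1) was 3.92, 4.05 and 4.04 in the vector libraries and 3.96, 3.94 and 3.93 in the SHMT2 libraries. Over 4768 genes with partly shared regions only it was 2.69, 2.82 and 2.79, and 2.73, 2.72 and 2.70. The difference was 1.23 ± 0.01 on the log2(TPM + 1) scale (SD over 6 libraries), positive in 6 of 6 (two-sided exact sign-flip permutation p = 0.03125). It was 0.46 among genes averaging 1 TPM or more and 0.77 where a member was assigned to the nearest gene end marked by H3K4me3. Libraries share their genes, so this p says only that the 6 libraries have the difference in common.

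Expression was higher with each class of member number, as the plot of nearest-gene expression shows. The mean log2(TPM + 1) was 1.85 for genes with no distal region near, 3.61 with 1 member, 4.39 with 2 or 3 and 5.19 with 4 or more. An average of 1 TPM or more was reached by 42.4%, 77.2%, 87.0% and 93.9% of these genes, and an end marked by H3K4me3 was found in 50.9%, 78.9%, 84.7% and 89.2%.

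Between SHMT2 and vector, limma on log2(TPM + 1) called 0 of 2517 expressed genes nearest to members, beside 0% of 11117 genes. At an unadjusted p under 0.05 there were 371 (14.7%, beside 16.7% of all genes), 176 higher and 195 lower. Groups did not overlap in 270 genes that were higher with SHMT2 (10.7%, beside 16.9% of all genes) and in 288 that were lower (11.4%, beside 8.26%). The median log2 fold change was -0.04 for these genes and 0.02 for all. Among the 496 with 3 or more members, 37.1% had a positive fold change, beside 53.2% of all genes. Vector replicate 1 decided the count of calls: with it left out, 198 of 2518 genes nearest to members passed the limma threshold, beside 7.63% of all genes.

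The RNA libraries differed in cells other than B cells. Summed TPM of 8 erythroid markers found were 48.3, 2994 and 591 in vector replicates 1 to 3 and 95.8, 41.4 and 113 in SHMT2 replicates, with Hbb-b1 listed at 0. Summed TPM of 11 myeloid markers were 170, 993 and 887, against 381, 270 and 249. The B cell markers summed to 9425, 7477 and 6802 with vector and 9238 to 9499 with SHMT2. Over the 6 libraries, 8 T cell markers summed to 308.3 to 471 TPM and 5 NK cell markers to 3.36 to 23.1 TPM. So vector replicates 2 and 3 were high in erythroid and myeloid markers and low in B cell markers, and the part of this in the expression differences was not tested. In bulk RNA, fewer cells of a type and less RNA per cell cannot be told apart. Shmt2 itself was at 174, 223 and 157 TPM with vector and 244, 345 and 259 TPM with SHMT2, without overlap.

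Among genes with 3 or more members, those with the smallest p whose groups did not overlap are given here; none passed limma's adjusted threshold (adjusted p 0.204 to 0.206). Tnfaip3, which encodes A20, a brake on NF-κB, had 4 members and was at 592, 755 and 997 TPM with vector and 413, 288 and 373 TPM with SHMT2 (log2 fold change -1.11, SE 0.23). Ctla4, an inhibitory receptor of T cells, had 3 members and was at 51.2, 62.9 and 80.1 TPM against 32.1, 25.2 and 31.8 TPM (-1.08, SE 0.19). Cmah, which makes N-glycolylneuraminic acid, was at 56.2, 53.6 and 57.4 TPM against 41.3, 38.4 and 36.2 TPM (-0.52, SE 0.08). Each of these was lower in all SHMT2 libraries, as were Irf2bp2 (-0.68) and Fndc3a (-0.41). Higher in all SHMT2 libraries were Acot7, an acyl-CoA thioesterase whose window is shown above, at 3.15, 2.30 and 2.19 against 7.26, 4.88 and 4.44 TPM (0.87, SE 0.21), and Capzb, an actin-capping subunit, at 79.7, 57.6 and 63.8 against 88.5, 95.8 and 99.4 TPM (0.50, SE 0.13). Fam86 (0.42), Chchd3 (0.37) and Ola1 (0.34) completed the 5 higher ones. Without vector replicate 1 the adjusted p was 0.033 for Tnfaip3, 0.026 for Ctla4, 0.045 for Cmah, 0.021 for Irf2bp2 and 0.032 for Capzb. It was 0.053 to 0.107 for Acot7, Ola1, Fndc3a, Chchd3 and Fam86. That refit left vector replicates 2 and 3, which were high in erythroid and myeloid markers. Without those libraries instead, the log2 fold change was -0.74 for Tnfaip3, -0.77 for Ctla4, -0.53 for Cmah, -0.38 for Irf2bp2 and 0.24 for Capzb.

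Of the 78 B lineage genes with a member, limma called 0; 10 (12.8%, beside 16.7% of all genes) had an unadjusted p under 0.05, of which 2 were higher and 8 lower, beside 1258 and 600 of all genes. Cxcr4, with 10 members, was at 319, 336 and 425 TPM with vector and 186, 247 and 274 TPM with SHMT2, and Zeb2, with 9, at 89.2, 94.5 and 117 against 81.3, 59.1 and 65.8 TPM. Neither overlapped, and the adjusted p was 0.212 for both. Btg1 was at 1009, 1477 and 1604 TPM against 1007, 930.5 and 1064 TPM, where vector replicate 1 lay among the SHMT2 libraries; its adjusted p was 0.327, and 0.035 without that replicate. Foxp1 (220.5 to 253.5 TPM), Bach2 (150 to 361 TPM), Ebf1 (101 to 132 TPM) and Myc (38.6 to 146 TPM) overlapped between the groups.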

How the data were processed

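Members and gene lists were chosen with earlier results of these data known. H3K4me1 and H3K4me3 peaks, made with BWA, mm10 and MACS2 per the submitters' processing notes, were used as deposited, with the authors' fold enrichment and −log10 q-value of each peak; no source used here says whether inputs served as control. RNA values are the authors' TPM (STAR and mm10 per the submitters' processing notes, the quantification tool not given in the sources used here), and their depth is unknown. The ERRBS tables hold, per the file headers, coverage as a count of calls and the percent read as C or T per cytosine (Bismark and Bowtie2 per the submitters' processing notes), with a mean coverage of 63.0 to 71.6 calls per library; the labels' protocol is one for bisulfite PCR of single amplicons, which leaves the library steps partly unknown. For ERRBS SHMT2 replicates 2 and 3 the transfection labels name other numbers than the titles, and the titles were followed.

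Autosomal peaks were merged and distances taken to RefSeq gene spans (GRCm38.p6). The level of a region was methylated over all calls at the 1211987 cytosines with 10 or more calls in each of the 6 libraries. A binomial model with overdispersion moderated across regions was tested by a two-sided F test. Expression was fitted with limma 3.58.1 in R 4.3.3 on log2(TPM + 1), which understates changes of low genes, over genes averaging 1 TPM or more. P-values were adjusted by Benjamini-Hochberg over all regions or genes. Both models were also run on simulated data without an odd library, a setting unlike these data, so those runs do not vouch for the models here. Library means were compared by exact permutation (3 against 3) or, in 3 contrasts, by exact sign flips over 6 libraries. Sign flips were also run within each class of width, and permutation on partly shared regions and unmarked tiles. The p-values of these further tests are not printed. Named items followed rules of rank: the widest members, the clusters and genes with most members, the extremes of methylation, and the smallest p without overlap. The Slc25a25, Zmynd8 and other windows, and members by Nfatc2, Irf8, Cxcr4, Myc and Pax5 named for methylation, were chosen after their values were seen. Some items that these rules select are not reported here.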

Additional observations from a re-analysis of the deposited data

How the results depend on the processing

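The number of members depended most on the peak lists: it was 1296 with H3K4me1 peaks of −log10 q of at least 3, 1916 where the peaks of each list had to cover 50% of the region, 2528 with the top 25000 peaks of each list, and 6034 to 9266 with 1 H3K4me1 library left out. The share of B lineage genes with a member became 31.1%, 36.3% and, with gene ends 10 kb away, 45.2%, beside 5.07%, 7.16% and 11% of all protein-coding genes. Methylation of members minus partly shared regions reversed to -1.44 points in regions of 1 to 2 kb and -2.93 points in regions of 2 to 4 kb, alternatives chosen after seeing the data. Members minus partly shared regions gave 26.9 points weighted by calls, 35.0 with 10 or more cytosines and 7.06 with 50% cover, and members minus unmarked tiles -7.91 and -13.2 points for the first 2 of these. Leaving out 1 library gave 14.2 to 14.3 points for that contrast, -20.8 to -19.7 points against unmarked tiles and 1.23 to 1.23 for expression, all with an exact p of 0.0625, the smallest that 5 libraries allow. The SHMT2 difference in methylation was 0.36 to 1.93 points (exact p 0.1 to 0.6) with 1 library left out, and 2.16 weighted by calls and 3.24 with 10 or more cytosines (exact p 0.1 in both), and the model called 0 members each time, with 11 to 73 at an unadjusted p under 0.05 over the libraries left out. Limma called 0 to 198 nearest genes with 1 RNA library left out, and 1 without vector replicates 2 and 3. Deviations of same-numbered libraries from their group means correlated at -0.42, -0.33 and -0.06 in RNA and -0.16, -0.37 and 0.05 in ERRBS. These values gave no sign that the numbers pair libraries, but cannot exclude a shared animal or batch. With a replicate block the methylation difference was 1.22 points (exact sign-flip p = 0.5), and 0 members and 0 genes were called, with 20 and 232 at an unadjusted p under 0.05. The 179 refits of named genes and regions all kept their direction. These were chosen for groups that did not overlap, so leaving out libraries could not reverse them. The shared direction was thus largely set by the choice and is no support for a difference. With under 3 covered cytosines, 5124 members had no ERRBS level of their own. Apart from cytosines pooled in the profiles by distance, nothing is said of their methylation.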
